A study of Mus musculus with 4 samples.

Results

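The S100 genes encode small calcium-binding proteins, and 8 of them were followed here: S100a1, S100a4, S100a6, S100a8, S100a9, S100a10, S100a11 and S100a13. The genes were listed by symbol, with earlier results of these data known, and each symbol matched 1 gene among the 55536 annotated genes in the tables. The libraries came from macrophages of strain C57BL/6J, cultured from bone marrow cells, a widely used model of tissue phagocytes. All the cells had received lipid A, the bacterial lipid that activates Toll-like receptor 4, at 100 ng/ml for 12 h, followed by a washout of 12 h and a further exposure to the same concentration for 15 min. RNA was taken from the cytosolic fraction, ribosomal RNA was depleted, and the 4 libraries are labelled biological replicates 1 to 4 of this single condition. A single donor record is named in the labels, and sex and age were not collected. No library from untreated cells or from cells given lipid A once was used here, so no response to lipid A was measured, and p-values measure only the spread between these 4 libraries, which may be partly technical.

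S100 proteins carry a pair of EF-hand calcium-binding loops and mostly work as dimers. When calcium binds, most of them expose a surface that grips partner proteins such as annexins, myosin or the tumour suppressor p53. S100A8 and S100A9 pair as calprotectin, an abundant protein of neutrophils and monocytes that binds zinc and manganese and, once outside the cell, can signal through Toll-like receptor 4 and the receptor RAGE. S100A10 is the exception in the family, since it binds annexin A2 without calcium.

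Expected counts on genes summed to between 30660511 and 48223718 per library. Levels are in TPM (transcripts relative to a fixed total), a unit that corrects for transcript length and was taken over all annotated RNA. Protein-coding genes held only 25.3% of the TPM in replicate 2 and 36.6% in replicate 4, so a protein-coding gene tends to read low in replicate 2. Of 10025 genes with a mean of at least 1 TPM, 67.0% were lowest in replicate 2 and 62.3% were highest in replicate 4. All 10 macrophage markers lay above 1 TPM, led by Lyz2, Lgals3 and Adgre1. None of the fibroblast, epithelial, or T and B cell markers did, and their summed levels reached at most 0.67, 0.02 and 0.40 TPM in any library. The highest of these were Acta2, Thy1 and Dcn for fibroblasts and Lck and Cd3e for T cells, and of the epithelial list Cdh1 alone had any counts.

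All 8 genes lie on chromosome 3 (mm10), in 2 blocks. S100a1 (90511034 to 90514392, minus strand) and S100a13 (90514435 to 90524581, plus strand) open the first block back to back, with 42 bases between their starts. They are followed by S100a4 (90603771 to 90606045), S100a6 (90612882 to 90624181) and S100a8 (90668978 to 90670035), all on the plus strand, and by S100a9 (90692632 to 90695721) on the minus strand. S100a11 (93520488 to 93526287) and S100a10 (93555080 to 93564643), both on the plus strand, stand 28792 bases apart in the second block.

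The sequences upstream of 4 genes are shown, in the pairs S100a8 with S100a9 and S100a6 with S100a11. As described below, the measured ratios of these pairs varied least between libraries, although counting error can affect that ranking. The short stretch between S100a1 and S100a13 is shown because their transcription starts on either side of it. The sequences are RefSeq's for GRCm38.p6, read 5′ to 3′ on the strand of each gene and ended before the first annotated exon base. The gap is read on the strand of S100a13. Capitals mark matches, on either strand, to TTGCNNAA (C/EBP), GAGGAA (PU.1), TGANTCA (AP-1), GGGCGG (Sp1), TATAAA (the TATA box) or TTCNNNGAA (STAT), or to the NF-kB motif.
S100a8, chr3:90668821-90668977, plus strand: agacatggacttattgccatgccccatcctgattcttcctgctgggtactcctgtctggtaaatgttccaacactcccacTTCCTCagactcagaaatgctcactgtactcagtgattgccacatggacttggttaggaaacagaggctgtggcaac
S100a9, chr3:90695722-90695971, minus strand: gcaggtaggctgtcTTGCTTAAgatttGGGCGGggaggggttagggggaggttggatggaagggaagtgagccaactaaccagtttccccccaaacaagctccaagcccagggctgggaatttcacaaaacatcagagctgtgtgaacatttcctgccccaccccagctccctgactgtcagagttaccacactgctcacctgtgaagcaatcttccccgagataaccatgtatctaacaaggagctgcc
S100a6, chr3:90612644-90612881, plus strand: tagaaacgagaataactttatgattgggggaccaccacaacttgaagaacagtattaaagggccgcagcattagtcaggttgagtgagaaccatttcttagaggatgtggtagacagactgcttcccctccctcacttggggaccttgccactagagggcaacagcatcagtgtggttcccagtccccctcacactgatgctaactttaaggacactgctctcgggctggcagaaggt
S100a11, chr3:93520246-93520487, plus strand: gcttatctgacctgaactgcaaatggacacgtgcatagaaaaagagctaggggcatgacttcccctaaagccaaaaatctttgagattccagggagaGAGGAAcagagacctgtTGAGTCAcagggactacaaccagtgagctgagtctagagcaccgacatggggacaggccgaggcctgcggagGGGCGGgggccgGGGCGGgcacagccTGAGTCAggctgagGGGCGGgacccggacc
Gap between S100a1 and S100a13, chr3:90514393-90514434, plus strand: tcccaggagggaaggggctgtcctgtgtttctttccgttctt

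Counted over the 250 bases before the RefSeq start, which 7 of the 8 genes had, the pairs did not share their matches. S100a8 held 2 matches to GAGGAA, which 23.1% of 27025 promoters hold, and 1 to TATAAA, which 13.0% hold. Its RefSeq start lies 93 bases downstream of the start in the gene annotation used for the counts, so the TATAAA match and 1 of the GAGGAA matches fall in annotated exon and are not printed. S100a9 held 1 match to TTGCNNAA, found in 9.55% of promoters, and 1 to GGGCGG, found in 32.9%. S100a11 held 1 match to GAGGAA, 3 to GGGCGG and 2 to TGANTCA, a set of letters found in 6.87% of promoters. S100a6, S100a1 and S100a13 held no match to any of the 7 motifs, and S100a4 held 1, to TATAAA. The NF-kB motif, found in 4.60% of promoters, and the STAT motif, found in 7.18%, had no match in any of the 7 windows. A match describes letters and shows no binding.

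All 8 genes were above 1 TPM by limma's moderated test, against 58.2% of the 16262 genes tested, and none was below it, against 35.1%. Since the list was drawn up with levels in these libraries known, these counts describe the 8 genes and are no independent evidence that the family is expressed. Their median of the mean levels was 25.2 TPM, beside 2.72 TPM over all genes tested and 4.85 TPM over the 12636 protein-coding genes among them. The 8 mRNAs together summed to between 209 TPM in replicate 3 and 290.0 TPM in replicate 1, and S100a11 held 30.4% ± 3.94 (SD, n = 4) of that sum.

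**Figure D1:**
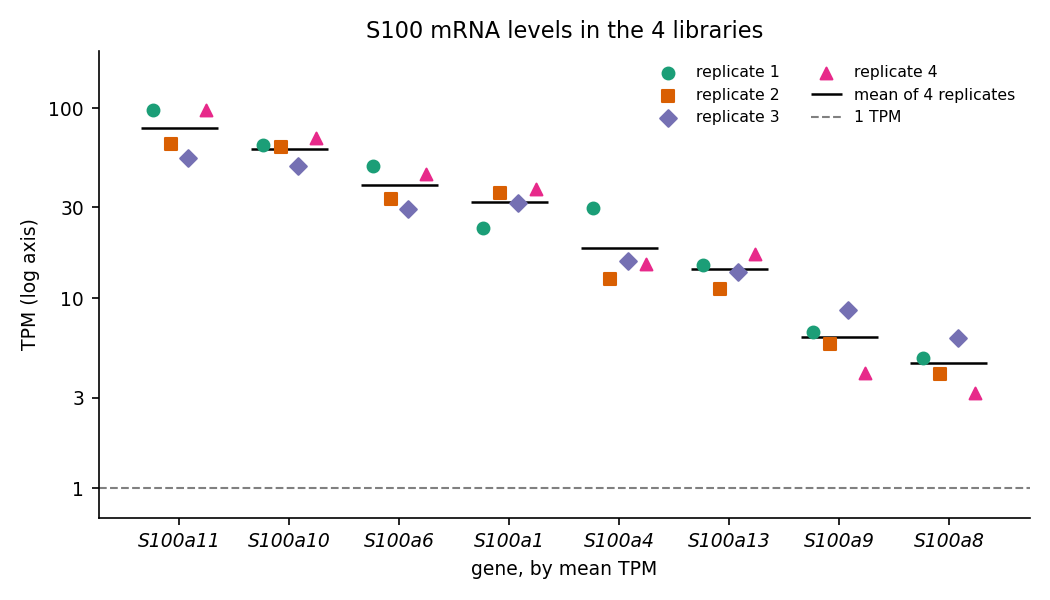
TPM of each S100 gene (log axis) in replicates 1 to 4 (symbols), with the mean of the 4 as a bar and 1 TPM as a dashed line. The genes span means from 78.5 TPM for S100a11 to 4.54 TPM for S100a8, and every symbol lies above 1 TPM.

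The highest level belonged to S100a11, whose protein pairs with annexin A1. It read 97.8, 64.6, 54.3 and 97.2 TPM in replicates 1 to 4, a mean of 78.5 ± 22.4 (SD, n = 4), from 1218 to 1738 counts. Replicates 1 and 4 were nearly equal and stood above the other 2 libraries. The mean exceeded that of 95.1% of the 12636 protein-coding genes tested (adjusted p = 2.9e-10 for a level above 1 TPM, limma). The annotation holds 7 processed pseudogenes of its transcript, the closest being Gm12854, alike at 99.0% of 297 bases. Gm12854 was listed at 0, 0.64, 0.41 and 1.07 TPM in replicates 1 to 4, so few of the reads that could be shared were given to it.

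S100a10, the annexin A2 partner, came next at 63.5, 62.0, 49.6 and 69.5 TPM, a mean of 61.2 ± 8.37 (SD, n = 4; adjusted p = 1.48e-10, limma). Replicate 3 was the low library and the other 3 lay close together. S100a11 was above S100a10 in all 4 libraries, by a mean log2 ratio of 0.32 ± 0.27 (SD, n = 4), but by only 0.06 and 0.13 in replicates 2 and 3. The exact sign-flip permutation test gave p = 0.13 (two-sided), the smallest p that 4 libraries allow, and 0.219 after adjustment over the 7 neighbouring pairs. No pair in the order could therefore pass this test. By counts not corrected for length the order of these 2 genes turned, with a mean log2 ratio of -0.35. The S100a11 transcript has 511 bases and the main S100a10 transcript 685.

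S100a6, or calcyclin, read 49.3, 33.1, 29.6 and 45.0 TPM, a mean of 39.2 ± 9.38 (SD, n = 4). S100a1, best known from heart and skeletal muscle, read 23.3, 35.8, 31.8 and 37.7 TPM, a mean of 32.2 ± 6.42. The order of S100a6 and S100a1 was not settled: S100a6 was higher in replicates 1 and 4 and S100a1 in the other 2, with a mean log2 ratio of 0.28 ± 0.56 (SD, n = 4; exact p = 0.5, adjusted 0.5). Without replicate 1 that ratio was 0.01. S100a10 stood above S100a6 in all 4 libraries, 1.58-fold on average (log2 ratio 0.66 ± 0.23, exact p = 0.13, adjusted 0.219).

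S100a4, whose protein binds the heavy chain of non-muscle myosin IIA, varied most in proportion to its mean. It read 29.7 TPM in replicate 1 and 12.6, 15.7 and 15.1 TPM in replicates 2 to 4, a mean of 18.3 ± 7.75 (SD, n = 4). Replicate 1 was thus 1.89-fold to 2.36-fold above each other library. S100a13, which takes part in the export of proteins that lack a signal peptide, read 15.0, 11.2, 13.8 and 17.0 TPM, a mean of 14.3 ± 2.44. S100a4 was higher than S100a13 in 3 of 4 libraries (log2 ratio 0.29 ± 0.49, exact p = 0.375, adjusted 0.438), and without replicate 1 the mean ratio was 0.06. By counts not corrected for length this order turned too, with a mean log2 ratio of -0.54. S100a1 was higher than S100a4 in replicates 2 to 4 and lower in replicate 1 (log2 ratio 0.87 ± 0.84, exact p = 0.25, adjusted 0.35).

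The calprotectin mRNAs were the lowest of the 8. S100a9 read 6.62, 5.73, 8.62 and 4.04 TPM, a mean of 6.25 ± 1.91 (SD, n = 4), from 73 to 195 counts. S100a8 read 4.85, 4.01, 6.14 and 3.16 TPM, a mean of 4.54 ± 1.27, from 52 to 126 counts. Replicate 3 was highest and replicate 4 lowest for both. Their means exceeded those of 55.7% (S100a9) and 48.4% (S100a8) of the protein-coding genes tested, near the middle of the range, and both were above 1 TPM (adjusted p = 2.25e-07 and 7.95e-07, limma). S100a13 stood above S100a9 in all 4 libraries, 2.34-fold on average, with the gap widest in replicate 4 (log2 ratio 1.22 ± 0.60, exact p = 0.13, adjusted 0.219).

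**Figure D2:**
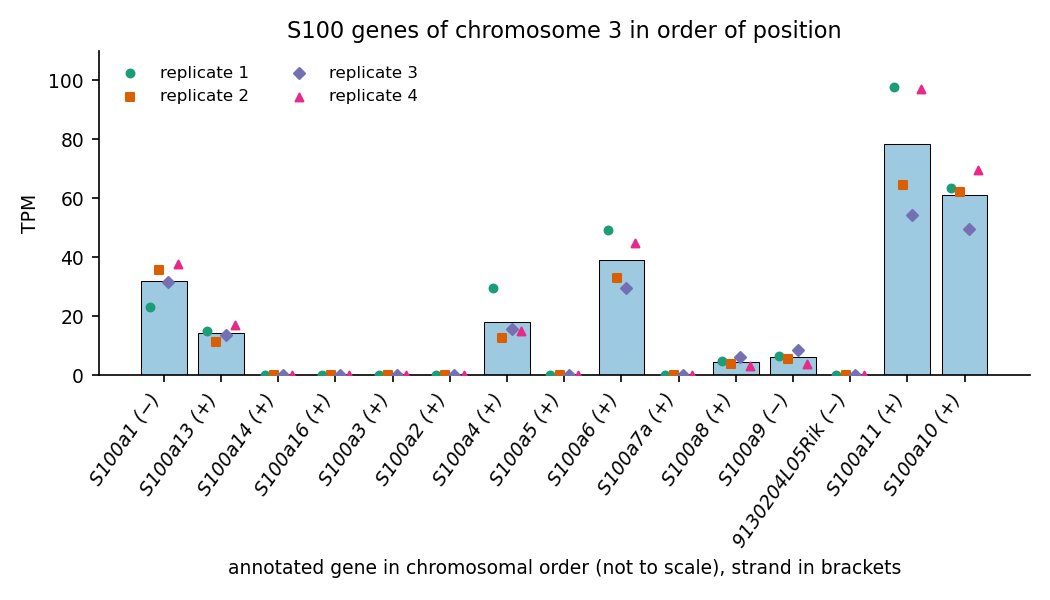
TPM (linear axis) of the annotated S100 genes of chromosome 3 in order of position, not to scale, with bars for the mean of 4 replicates and symbols for each replicate; blue bars are the 8 genes described, and 9130204L05Rik is the files' name for S100a7l2. Genes at or near 0 stand between expressed ones, such as S100a5 (0 TPM in every library) between S100a4 (18.3 TPM) and S100a6 (39.2 TPM).

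The back-to-back genes S100a1 and S100a13 differed 2.24-fold in TPM, S100a1 being higher in all 4 libraries (log2 ratio 1.17 ± 0.43, SD, n = 4). Of 9 other S100 genes on the list, none was above 1 TPM, 2 were called below it (S100b and S100a7a), and 7 had too few counts to be tested. S100a5, S100a7l2, S100a14, S100g and S100z had 0 counts in every library, which allows up to 0.0978 CPM (counts per library total, without length correction) in replicate 1, the shallowest library, and 0.0622 CPM in replicate 3, the deepest. S100a2, annotated in the first block but not on the list, had 0 counts in every library as well. S100a3 had 3 counts, all in replicate 1, and S100a16 had 1 count, in replicate 2. S100b lay between 0.03 and 0.06 TPM. S100a7a lay between 0.02 and 0.08 TPM from 1 to 5 counts. In the posterior mean TPM that the same tables give, S100a7a averaged 7.64 TPM. Its 137-base transcript S100a7a-202 had 0 counts and an effective length of at most 2.97 bases. An S100a4 neighbour, Gm42674, shares 302 of the 584 exon bases of S100a4 and had 0 counts in all 4 libraries.

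The 2 calprotectin genes shared a pattern over the libraries. S100a9 exceeded S100a8 in all 4 libraries, by log2 ratios of 0.45, 0.51, 0.49 and 0.35, a mean of 0.45 ± 0.07 (SD, n = 4; exact p = 0.13, adjusted 0.219). That SD was the smallest of the 28 ratios among the 8 genes, and the next was S100a11 over S100a6, at 0.98 ± 0.10. Counting error was not taken out of these SDs. S100a8 had 52 to 126 counts and S100a9 had 73 to 195, so counting alone can move their ratio. In replicate 1 the counting interval of S100a8 ran from 1.58 to 2.63 CPM. The SD and its rank therefore cannot show that the true ratio is this steady. S100a8 and S100a9 shared the same order of libraries from high to low, 3, 1, 2 and 4, which 60 of the 10025 genes of at least 1 TPM had (0.599%). After rescaling to protein-coding genes both had the order 3, 2, 1 and 4, which 5.13% of genes had, so replicates 3 and 4 kept their places and the other 2 changed. With TMM-scaled counts (edgeR's scaling) the 2 genes again had replicate 3 first and replicate 4 last, and differed in which of replicates 1 and 2 was higher. The 4381 genes of at least 10 TPM were ranked by Euclidean distance, on centred log2 TPM over the 4 libraries, to the mean pattern of the pair. The nearest were Tfrc, the transferrin receptor (0.19), Glul, which makes glutamine (0.25), and the ribosomal protein pseudogene Rps23-ps1 (0.27). The distance of S100a8 to S100a9 was 0.12, which is measured between the 2 genes and not to their mean.

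The counting intervals of replicates 3 and 4, the highest and lowest libraries of both genes, did not overlap for either gene. This was not particular to the pair. The intervals of the highest and lowest library were also apart for S100a1, S100a4, S100a6, S100a10 and S100a11, and overlapped only for S100a13. The share of all genes with such a gap was not computed. Each gap compares the extremes of 4 libraries, picked from the same values, so it sets these genes apart from no others. S100a8 stood at 2.61 CPM in replicate 3, with an exact (Clopper-Pearson) 95% interval from 2.18 to 3.11, and at 1.22 in replicate 4, from 0.908 to 1.59. S100a9 stood at 4.04 CPM (3.50 to 4.65) and 1.71 CPM (1.34 to 2.15). These intervals and the limits given for counts of 0 cover counting error only, because the reads carry no molecular identifiers and are not independent molecules.

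Because both genes mark neutrophils and monocytes, those markers were read beside them. Of 12 neutrophil markers, 5 were below 1 TPM, 5 were untested for low counts, Ngp had no call and only Mmp8 was above (2.28 ± 0.379 TPM, SD, n = 4). After these 2, Prtn3 was highest, at 0.230 ± 0.0866 TPM, and Ly6g was at 0 in 3 libraries and at 0.02 TPM in replicate 4. The 12 summed to 3.85, 2.80, 4.45 and 4.20 TPM in replicates 1 to 4. The single markers differed in their pattern over the libraries. Mmp8, a neutrophil collagenase, read 2.59, 1.78, 2.20 and 2.56 TPM, highest in replicate 1. Ngp, a neutrophil granule protein, read 0.47, 0.51, 1.28 and 0.58 TPM, highest in replicate 3. Prtn3 (0.13, 0.21, 0.34 and 0.24 TPM) and Camp (0.15, 0.11, 0.24 and 0.16 TPM) were likewise highest in replicate 3. Mpo was highest in replicate 1, at 0.14 TPM, and Ctsg in replicate 4, also at 0.14 TPM, each from at most 6 counts per library. Cebpe (0.13 TPM) and Elane (0.09 TPM) were highest in replicate 4. Ltf read 0.21 TPM in both replicates 1 and 4, though its counts were highest in replicate 3, at 23. Ly6g, Retnlg and Cxcr2 had at most 2 counts in any library. Of 7 monocyte markers, 5 were above 1 TPM, among them Plac8 and Ly6c2, and F13a1 and Cx3cr1 were below. The monocyte markers summed to 45.7, 38.4, 37.7 and 94.8 TPM, highest in replicate 4, where S100a8 and S100a9 were lowest. The part of these cells in the levels of S100a8 and S100a9 was not tested, and in bulk RNA fewer cells of a type and less RNA per cell cannot be told apart.

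**Figure D3:**
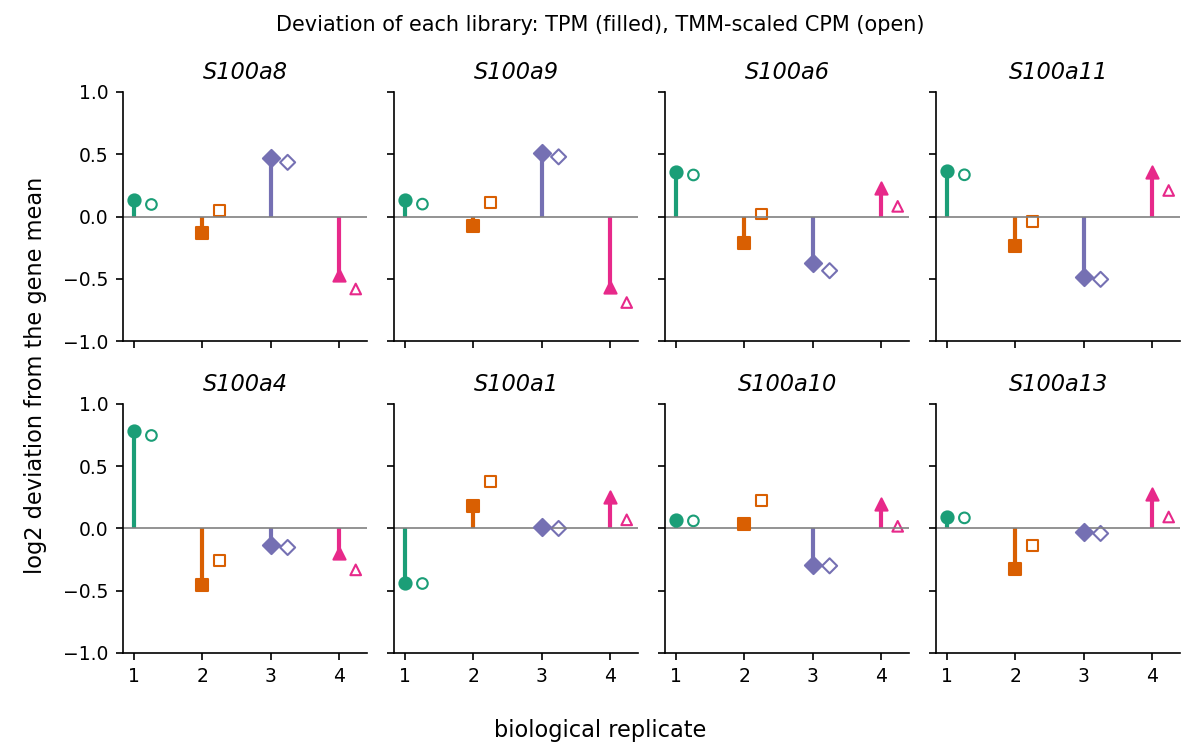
Deviation of each replicate from the gene's own mean, in log2 units, on TPM (filled symbols with a line from 0) and on TMM-scaled counts (open symbols). S100a8 and S100a9 have nearly the same pattern with replicate 3 highest, S100a6 and S100a11 have replicate 3 lowest, and S100a4 stands out in replicate 1 at 0.78 (filled).

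S100a6 and S100a11 shared another order of libraries, 1, 4, 2 and 3, which 2.52% of genes had. S100a11 was 1.98-fold above S100a6 on average, and higher in all 4 libraries. The 2 genes lie in different blocks of the chromosome. S100a4, which is parted from S100a6 by S100a5, was likewise highest in replicate 1. After rescaling to protein-coding genes, S100a6 and S100a11 remained highest in replicate 1 and lowest in replicate 3, and only replicates 2 and 4 changed places in S100a6.

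The spread between libraries was set beside genes of like abundance with edgeR's biological coefficient of variation (BCV), an estimate of the spread beyond counting error. S100a8 had 0.340 and S100a9 had 0.322, where genes of like mean count had medians of 0.322 and 0.269. S100a4 had 0.287 against 0.182, and 92.4% of its 1452 peers varied less. S100a11 had 0.199 against 0.132, and 92.7% of its 1929 peers varied less. S100a1 (0.192 against 0.139) and S100a6 (0.186 against 0.139) lay likewise above their medians, and S100a10 (0.149 against 0.131) lay slightly above. S100a13 alone lay below, at 0.150 against 0.164.

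The value for S100a4 rested on replicate 1. Without that library it fell to 0.155, and the mean level fell from 18.3 to 14.5 TPM. S100a4 is also used as a fibroblast marker, so those genes were read beside it: the 9 fibroblast markers summed to 0.67, 0.18, 0.44 and 0.30 TPM in replicates 1 to 4, highest in replicate 1. Of these 9, 6 were below 1 TPM and 3 had too few counts to be tested, with Acta2 the highest at 0.160 ± 0.0392 TPM. S100a1 was at its lowest in the same library, where it read 23.3 TPM and was between 31.8 and 37.7 TPM in the others. The cause was not tested.

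S100a13 showed how far the scale matters. As deposited it varied between 11.2 and 17.0 TPM, a coefficient of variation of 17.1%. In TPM rescaled so that protein-coding genes alone make up the total, it read 47.2, 44.3, 46.0 and 46.5, a coefficient of variation of 2.71%. S100a13 had only 370 to 531 counts per library, and its counting interval in replicate 2 ran from 9.63 to 11.8 CPM. The 2.71% can therefore not be taken as its true spread. On TMM-scaled counts S100a13 deviated from its mean by -0.14 log2 units in replicate 2 and 0.09 in replicate 4. S100a6 and S100a11 also varied less on the protein-coding scale (18.4% and 20.9% in place of 23.9% and 28.5%), and S100a4 did so slightly (39.6% in place of 42.4%). The other 4 varied more, among them S100a1 (26.4% in place of 20.0%) and S100a9 (35.3% in place of 30.5%).

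The receptors of extracellular S100 proteins were unevenly represented. Of 5 receptor genes, 4 were above 1 TPM and 1 was below. The counts of this and every other gene list stand beside 58.2% above and 35.1% below 1 TPM among all genes tested. They only describe the lists, which were chosen with earlier results of these data known. Bsg (basigin, a receptor of S100A9) stood at 77.6 ± 10.8 TPM (SD, n = 4), Cd36, a scavenger receptor, at 55.2 ± 30.1 and Tlr4 at 25.7 ± 5.53. Ager, which encodes RAGE, lay between 0.02 and 0.06 TPM from 1 to 6 counts (adjusted p = 1.13e-07 for a level below 1 TPM, limma). Tlr4 rested on 4745 to 7891 counts per library.

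Most of the listed intracellular partners were above 1 TPM. Of 7 annexins and membrane partners, 6 were above 1 TPM and Dysf (dysferlin) was listed at 0 TPM in every library. Anxa5 stood at 132 ± 15.5 TPM, Anxa2 at 116 ± 16.5 and Anxa1 at 92.2 ± 25.6. In paired terms, chosen after the values were seen, Anxa2 was 1.59-fold to 2.13-fold above S100a10 and Anxa1 was 1.02-fold to 1.44-fold above S100a11 across the 4 libraries. Myh9, named below, was 2.17-fold to 4.40-fold above S100a4, and Il1a 1.04-fold to 1.66-fold above S100a13. Other partners were not above their S100 gene throughout: Cacybp stood at 0.560 to 0.927 of S100a6, Ahnak at 0.583 to 1.35 of S100a10 and Atp2a2 at 0.521 to 1.14 of S100a1. Anxa11, which binds S100A6, stood at 15.6, 14.2, 16.6 and 21.1 TPM, below S100a6 in every library.

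Of 12 cytoplasmic partners, 9 were above 1 TPM, 2 were below and Ryr2 could not be tested. Iqgap1, a scaffold of the cortical actin network, stood at 71.5 ± 18.3 TPM, and Myh9, the myosin IIA heavy chain bound by S100A4, at 60.1 ± 12.2. Myh10, the heavy chain of the related myosin IIB, stood at 0.475 ± 0.270 TPM and was called below 1 TPM, as was the ryanodine receptor Ryr1, at 0.01 TPM or less. The calcium release channels that S100A1 binds in muscle were thus near 0, whereas Atp2a2, the calcium pump it also binds, stood at 25.6 ± 5.25 TPM.

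Among the cargo and co-factors of S100A13 export, Il1a, the cytokine interleukin-1 alpha, was above 1 TPM at 24.9, 15.2, 14.8 and 17.7 TPM in replicates 1 to 4. Fgf1 was below 1 TPM (at most 0.07) and Syt1 was listed at 0 in every library. Of the 6 genes of the plasminogen system, to which S100A10 binds at the cell surface, 4 were above 1 TPM. Eno1, an enolase that also serves as a plasminogen receptor, led at 70.0 ± 11.6 TPM, with Plgrkt at 22.9 ± 5.31 and Plau, the urokinase gene, at 17.0 ± 3.42. Plg was listed at 0 and Plat at 0.01 TPM or less.

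Of 8 factors known to act on S100a8 and S100a9, 7 were above 1 TPM, led by Spi1, which encodes PU.1 (115 ± 28.8 TPM), Cebpb (29.3 ± 7.72) and Stat3 (28.6 ± 7.77). The granulocyte factor Cebpe was below 1 TPM, at 0.0825 ± 0.0568. Of 16 other EF-hand proteins, all were above 1 TPM, with a median of 58.3 TPM. They were led by Aif1, a macrophage actin-binding protein (465 ± 107 TPM), Efhd2 (231 ± 46.3) and Lcp1, or L-plastin (218 ± 76.4), each above every S100 gene.

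The transcripts of S100a6 were split between 2 first exons. S100a6-201 (731 bases) held 44.0%, 48.6%, 40.6% and 46.5% of the gene's TPM in replicates 1 to 4, and S100a6-203 (464 bases) held 56.0%, 50.6%, 59.4% and 53.5%. The 2 transcripts share their last 2 exons, 386 bases, and differ in the first, which is 345 bases in S100a6-201 and 78 bases in S100a6-203 and starts 423 bases further downstream. The sequence printed for S100a6 lies before the first exon of S100a6-201 only. By counts, S100a6-203 had the smaller part, 36.8% on average. By the second quantification it held 48.3% of TPM on average in place of 54.9%, so which transcript led depended on the table.

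The 2 transcripts of S100a9 differ by 10 bases at the 5′ end of the first exon and by 3 bases at the start of the second. S100a9-201 led in all 4 libraries with 85.5%, 89.9%, 81.3% and 67.6% of TPM, and S100a9-202 held the remainder. In replicate 4, S100a9-202 was given 24 of 73 counts, 32.9% with an exact 95% interval from 22.3% to 44.9%. In replicate 2 it was given 12 of 118 counts, 10.2% (5.37% to 17.1%). The 2 transcripts share 509 bases, so many reads fit both and were divided between them by the quantification. The intervals treat each count as assigned with certainty and are therefore too narrow. The second quantification, made from the same reads, gave 33.0% and 10.5% of TPM for the same 2 libraries. Replicate 4, with the lowest level of S100a9, thus had the highest estimated share of S100a9-202 in both tables.

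S100a1-202, which starts 114 bases downstream of S100a1-201, was likewise most frequent in replicate 4, at 5.89% of TPM, and held between 1.76% and 2.89% in the others. In counts that was 48 of 1024 (4.69%, exact 95% interval 3.48% to 6.17%), against 7 of 527 in replicate 1 (1.33%, 0.536% to 2.72%). S100a1-201 and S100a1-202 share 560 bases, so these intervals too leave out the error of dividing shared reads. The remaining 5 genes were read almost wholly from their first listed transcript, whose share in the table from the transcriptome alignment was at least 97.1% in every library.

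**Figure D4:**
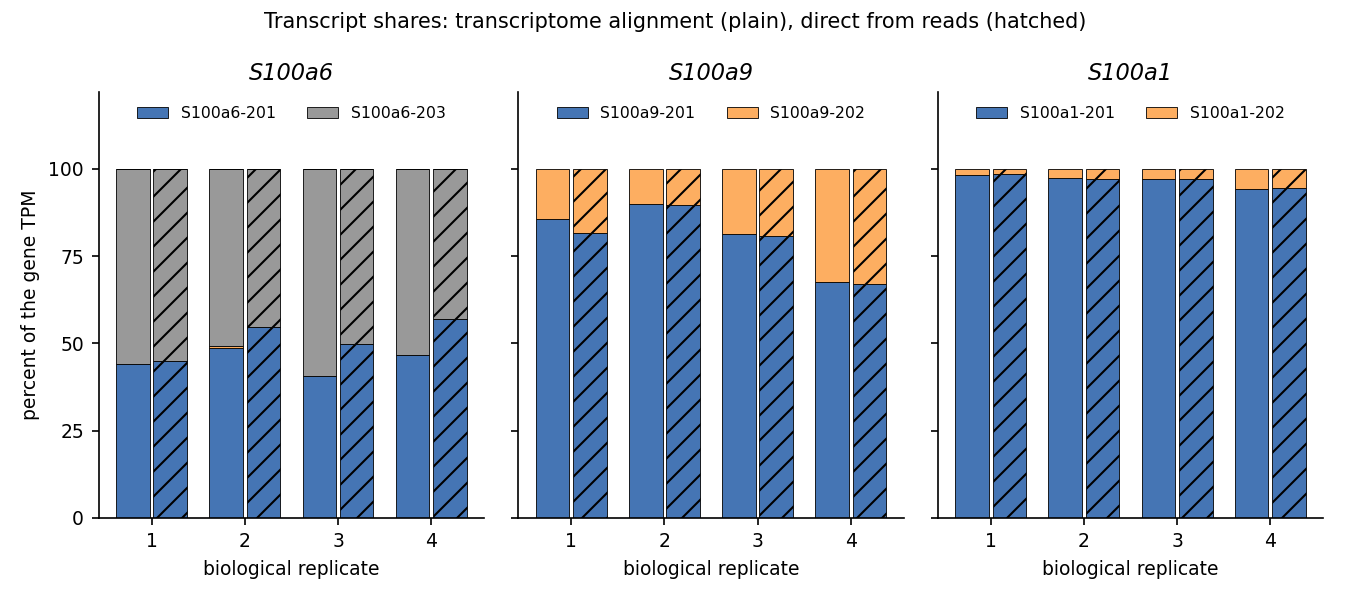
Percent of the TPM of S100a6, S100a9 and S100a1 given to each transcript in replicates 1 to 4, in the table from the transcriptome alignment (plain) and the table made directly from reads (hatched). S100a6 is split nearly evenly, and S100a9-202 has its largest share, 32.4%, in replicate 4.

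The second quantification gave lower TPM for every one of the 8 genes as deposited. The log2 difference, first minus second, averaged between 1.43 for S100a8 and 1.60 for S100a6, where the median of all genes compared was 1.40. None of the 8 was called as different by more than 2-fold in limma's treat test (adjusted p between 0.102 and 0.106), against 6.44% of 10323 genes. When both tables were rescaled to protein-coding genes, the differences were between 0.03 for S100a8 and 0.14 for S100a6, and again none was called, against 4.15% of 14108 genes (adjusted p = 1 for each of the 8).

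**Figure D5:**
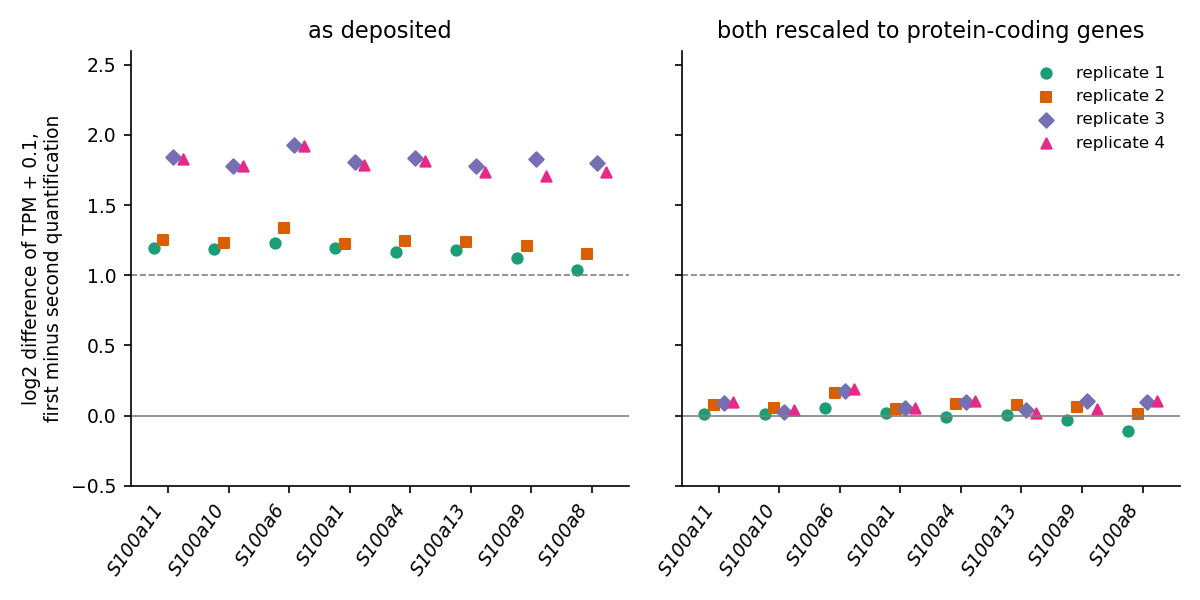
Log2 difference of TPM + 0.1 between the 2 quantifications for each S100 gene and replicate, as deposited (left) and with both rescaled to protein-coding genes (right); the dashed line marks a 2-fold difference. As deposited all points lie above the dashed line, and replicates 3 and 4 lie above replicates 1 and 2; after rescaling the gene means lie between 0.03 and 0.14.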

How the data were processed

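Per the labels, 4 libraries of cytosolic, ribosomal-RNA-depleted RNA were made from 1 condition. Per the deposited notes, the authors quantified genes and transcripts from a transcriptome alignment (expected counts, TPM) and transcripts directly from the reads (estimated counts, TPM), on mm10 with GENCODE M21. The aligner and quantifiers were not given in the sources used here. Depth was 30660511 to 48223718 expected counts per library.

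The S100 genes and all lists were chosen with earlier results of these data known. Genes with at least 10 summed expected counts were tested on log2(TPM + 0.1) against 1 TPM in each direction (limma 3.58.1, one-sided, eBayes with trend), and calls needed p under 0.05 after Benjamini-Hochberg adjustment over all of them. Spread used edgeR 4.0.16 on rounded expected counts, beside genes within 0.5 log2 CPM. The quantifications were compared with limma treat for genes of at least 1 TPM in either, summing transcripts per gene. Neighbours in the order were compared with exact sign-flip permutations. Similar transcripts were sought with blastn 2.17.0 (at least 85% identity over 100 bases). Fits were tested on simulated data. DESeq2 1.42.0 served one alternative.

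Named are the 8 genes, the other S100 genes, the 3 highest genes of each further list and its members called against the majority, genes overlapping an S100 gene, and the 3 genes nearest in pattern to S100a8 and S100a9. S100a2, Ly6g, Mpo, Ctsg, Anxa11, Ahnak, Cacybp, Atp2a2, Dysf, Ryr2, Plg, Plat and the pseudogenes of S100a11 were named after their values were seen. So were Camp, Elane, Ltf, Retnlg and Cxcr2. Symbols matched directly except S100a7l2, matched through a synonym. A few genes covered by the naming rule are left unreported.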

Additional observations from a re-analysis of the deposited data

How the results depend on the processing

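The number of the 8 genes above 1 TPM was 8, and below it 0, under all 12 alternatives, which were another pseudocount, no filter or a stricter one, protein-coding or TMM scaling, posterior mean TPM, the second quantification with and without rescaling, and leaving out each replicate. Of the 27 partner and receptor genes, 20 were above 1 TPM, and the number was 20 in each of these as well. In the second quantification as deposited S100a8 averaged 1.66 TPM, with an adjusted p of 0.0434 (limma). Of the other S100 genes 1, S100a7a, was above 1 TPM by posterior mean TPM only. With a pseudocount of 1, 3 genes (S100a6, S100a10 and S100a11) were called different between the quantifications in place of 0. By CPM, without correction for length, mean log2 ratios moved to -0.35 for S100a11 over S100a10, 1.01 for S100a10 over S100a6, -0.54 for S100a4 over S100a13, 1.98 for S100a13 over S100a9 and 0.59 for S100a9 over S100a8, and S100a6 over S100a1 turned to -0.04, within its SD. The other alternatives left each neighbouring ratio within 1 SD of its value. Of 64 alternative BCV values, that of S100a4 without replicate 1 moved by over 1.5 times. No paired analysis was possible because the 4 libraries form a single group. The 52 to 126 counts of S100a8 and 73 to 195 of S100a9 limit what can be read from their transcript shares.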
